A study of Mus musculus with 36 samples.

Results

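Accessibility was examined at 5 stretches of the mouse genome named for 6 genes that fibroblasts use to build extracellular matrix: Col1a1, Sparc, Thbs2, Dcn with Lum, and Fbln1. Members were all accessible regions of the deposited count table that overlapped a fixed stretch of build mm9. The stretches were 94770000 to 94840000 on chromosome 11 (Col1a1), 55190000 to 55260000 on chromosome 11 (Sparc), 14780000 to 14850000 on chromosome 17 (Thbs2), 96920000 to 97060000 on chromosome 10 (Dcn and Lum) and 85010000 to 85140000 on chromosome 15 (Fbln1). The rule took every region by position, whatever its counts, but the stretches were picked with earlier results of these data known. The members numbered 562 of 1393120 regions, and 105 of them were among the 144810 regions with enough counts to be tested. The other 457 members were small and sparsely covered, with a median width of 252 bases and a median level of 0.127 CPM, the count of a region scaled by library size. Positions are given as the table gives them. No annotation of mm9 was used here, so a region is named by its stretch and is not assigned to an exon, an intron or a start site, and the Dcn and Lum stretch was not divided between its genes. In the gene order of RefSeq's GRCm38, used for names and lengths only, Col1a1 lies between Gm11544 and Sgca, Sparc between Fat2 and Atox1, Thbs2 between Smoc2 and Wdr27, Dcn and Lum side by side between Gm46240 and Kera, and Fbln1 between Ribc2 and Atxn10. The named genes are shorter than their stretches, for Col1a1 16819 against 70000 bases. Part of each stretch thus lies outside its named genes, and a region may lie in or near another gene.

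Open chromatin was measured by ATAC-seq, where a transposase cuts and tags accessible DNA, during direct reprogramming of cardiac fibroblasts towards heart muscle cells. All cells came from explants of neonatal hearts of CD-1 mice carrying an alpha-MHC-GFP reporter, which is driven by a cardiac myosin promoter, and were Thy1+/GFP- cells that the labels describe as mostly fibroblasts. Control cells carried a dsRed retrovirus, had no inhibitor, and dsRed+ cells were collected at day 7. Reprogrammed cells carried retroviruses for Gata4, Mef2c and Tbx5 (GMT), grew in sb431542, which blocks TGF-beta signals, plus xav939, which blocks Wnt signals. GFP+ cells were collected by sorting at days 2, 3, 7, 14 and 21. GMT libraries therefore describe the cells that had turned the reporter on, not the whole culture. Factors, inhibitors and sorted population all differ from the controls, as does time in culture except at day 7, and their parts cannot be told apart. There were 18 libraries in 6 groups of 3, stated to be biological replicates. A further 18 of the 36 samples in the labels were not analysed here. In such bulk libraries fewer cells with an open region and a region less open in every cell cannot be told apart. The fibroblast identity of the controls was not checked against marker genes, since no mm9 annotation was used here.

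Fibroblasts secrete the fibrous and gel-like material that holds a tissue together, and they are its main source in the heart. Col1a1 encodes a chain of type I collagen, the chief fibrillar collagen of scar. Sparc and Thbs2 encode matricellular proteins, which bind collagen and other matrix components and tune how cells attach to them. Decorin (Dcn) and lumican (Lum) are small leucine-rich proteoglycans that coat collagen fibrils and govern their assembly, and fibulin 1 (Fbln1) is a glycoprotein of elastic fibres and basement membranes. TGF-beta signalling, which sb431542 blocks, is a known inducer of collagen and other matrix genes in fibroblasts.

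The sequences before the gene starts are shown because the delivered factors bind known short motifs. RefSeq promoters of GRCm38.p6 were held for 3 of the 6 genes, Sparc, Thbs2 and Fbln1, and the 250 bases before the start are printed for these, on the strand of the gene and 5′ to 3′. Capitals mark matches to motifs, each searched on both strands. The motif of GATA factors was searched as AGATAA, that of T-box factors such as Tbx5 as AGGTGTG, and that of MEF2 factors as the consensus known by their name, which holds ambiguous bases and is not spelled out here. The site of AP-1, a factor active in fibroblasts, was searched as TGANTCA. TEAD factors, which also act in fibroblasts, were searched as GGAATG. Of the general promoter elements, the TATA box was searched as TATAAA. The CCAAT box was searched by the letters of its name. For Fbln1, which has 2 annotated starts, the first is shown.
Thbs2, chr17:14694263-14694512, minus strand: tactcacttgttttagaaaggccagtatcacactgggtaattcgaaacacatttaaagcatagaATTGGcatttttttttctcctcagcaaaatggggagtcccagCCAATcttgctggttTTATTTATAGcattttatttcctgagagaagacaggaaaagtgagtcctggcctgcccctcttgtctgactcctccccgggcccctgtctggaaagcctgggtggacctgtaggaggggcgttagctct
Sparc, chr11:55420081-55420330, minus strand: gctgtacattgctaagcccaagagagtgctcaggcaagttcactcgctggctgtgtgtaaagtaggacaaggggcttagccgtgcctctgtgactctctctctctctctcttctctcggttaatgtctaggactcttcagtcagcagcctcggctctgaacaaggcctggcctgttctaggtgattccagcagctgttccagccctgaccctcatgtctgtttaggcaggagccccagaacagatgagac
Fbln1, chr15:85205699-85205948, plus strand: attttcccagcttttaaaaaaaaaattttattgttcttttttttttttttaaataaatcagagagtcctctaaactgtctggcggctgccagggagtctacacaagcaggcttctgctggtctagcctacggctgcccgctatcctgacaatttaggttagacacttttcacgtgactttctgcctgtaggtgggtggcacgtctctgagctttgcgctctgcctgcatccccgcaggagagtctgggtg
Thbs2 alone held matches. Its MEF2 match spanned bases 122 to 131 of the printed run, 129 bases before the start, on both strands, and it overlapped a TATA box match on the minus strand at bases 125 to 130. A CCAAT box lay at bases 65 to 69 on the minus strand and another at bases 107 to 111 on the plus strand. Of 32817 promoters of the same length, 2.92% held a MEF2 match, 12.4% a TATA box, 33.8% a CCAAT box, 9.99% a GATA match, 5.10% a TBX match, 6.75% an AP-1 match and 12.6% a TEAD match. None of the motifs matched in the 250 bases before the Sparc start or before either start of Fbln1. These are matches of letters and not measured sites, and which mm9 region holds each start was not determined.

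Library totals ran from 2293128 to 23217308 counts, and 71.3 to 84.5% of each total fell in tested regions. Counts were scaled by trimmed means of log ratios (TMM). A single region of chromosome 1 took 49.4, 49.3 and 14.5% of the counts of fibroblast replicates 1, 2 and 3 and 4.52 to 35.4% in GMT libraries, and the TMM factors of the fibroblasts were 0.632, 0.638 and 1.19. Fibroblast replicates 1 and 2 were unusually alike, with a chi-square per degree of freedom of 1.38 between them against 17.8 and 24.3 with replicate 3, although they differed by more than sampling noise. Pairs within the GMT groups ran from 2.53 to 29.1. This statistic used counts set against library totals, without TMM, so the unequal share of the chromosome 1 region enters it. Whether fibroblast replicates 1 and 2 are separate cultures was not tested, and if they are not the p-values here are too small. Day 2 replicate 1, day 3 replicate 1 and day 14 replicate 3 stood apart from the other libraries in an earlier description of these data. They also had the lowest summed Col1a1 and Sparc accessibility of their groups, and calls or levels that leaving out all 3 changed are given with the regions and stretches they concern. That fit tested 124 members in place of 105. The 5 stretches held 1538 to 14886 counts per library.

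The level of a stretch was taken as the TMM-scaled CPM summed over all its regions, tested or not, and received no test. Of the 5, the Dcn and Lum stretch and the Thbs2 stretch alone were lower in each of the 15 GMT libraries than in any control. How often stretches elsewhere in the genome separate in this way was not determined, so the separation is a description only. At Dcn and Lum the controls measured 94.7, 97.9 and 92.2 CPM, and GMT cells 74.3, 61.2 and 58.5 at day 2, 72.5, 61.0 and 59.8 at day 3, 55.2, 56.4 and 50.8 at day 7, 58.9, 65.4 and 67.2 at day 14, and 61.2, 53.2 and 65.4 at day 21. The level was already lower at day 2, where the log2 ratio of group means was -0.55, and the ratio was -0.56, -0.81, -0.57 and -0.66 at the later times. Leaving out the libraries that stand apart moved these ratios to between -0.69 and -0.52. Over tested regions alone, which held 63.6% of the counts of the stretch, the ratios were -0.72, -0.72, -0.92, -0.90 and -0.90 at days 2, 3, 7, 14 and 21. The smaller ratios at days 14 and 21 than at day 7 were thus hardly seen in tested regions.

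At Thbs2 the controls measured 61.9, 67.1 and 67.4 CPM and the GMT libraries 39.5 to 60.5, with log2 ratios of -0.17, -0.24, -0.27, -0.44 and -0.33 at days 2, 3, 7, 14 and 21. The groups did not overlap, but the margin was narrow at day 2, where the highest GMT library (60.5) lay just under the lowest control. Without the libraries that stand apart the Thbs2 ratios were -0.079, -0.074, -0.15, -0.38 and -0.25. Over tested regions alone they were -0.12, -0.21, -0.28, -0.54 and -0.42. Sparc had the highest sum. It measured 214, 227 and 206 CPM in the controls and 120 to 231 in GMT cells, and its ranges overlapped those of the controls at days 2, 3 and 7 but not at days 14 and 21, when no library exceeded 192 CPM. Col1a1 measured 143, 167 and 187 CPM in the controls and 89.1 to 206 in GMT cells. Fbln1 measured 108, 131 and 137 CPM against 88.9 to 140. Both overlapped the controls at every time.

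**Figure D1:**
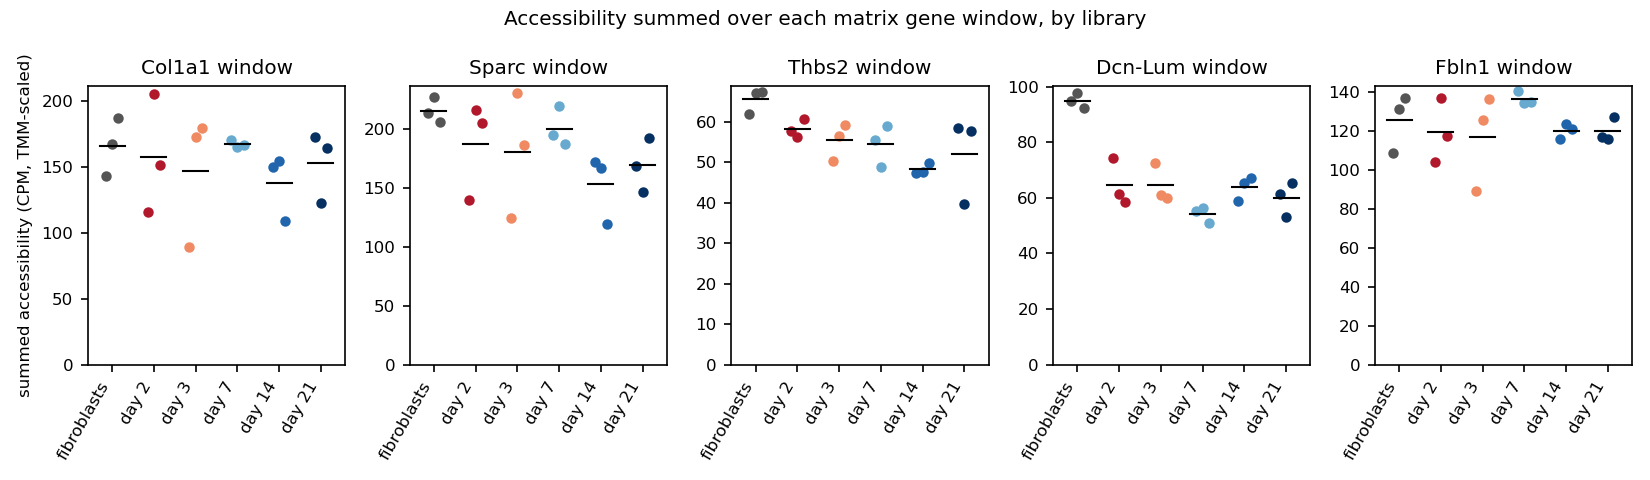
Summed accessibility of each stretch in TMM-scaled CPM (vertical axis, from 0) for the 3 libraries of each group (points) with the group mean (bar); fibroblasts are the dsRed controls and days are days of GMT with inhibitors. The Dcn and Lum controls lie at 92.2 to 97.9 and all GMT libraries at or below 74.3, whereas the Col1a1 and Fbln1 points overlap throughout.

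The small differences in level depended on the scaling and on single libraries. With library totals alone, the median of all tested regions itself moved to 0.63, 0.51, 0.30, 0.58 and 0.66 on the log2 scale at days 2, 3, 7, 14 and 21, and the Col1a1 ratios became 0.39, 0.14, 0.10, 0.067 and 0.31. Under the same scaling Dcn and Lum remained negative at -0.021, -0.12, -0.67, -0.22 and -0.19, while the other stretches turned positive at 1 or more times. Without the 3 libraries that stand apart, the Col1a1 ratio at day 2 went from -0.071 to 0.20 and at day 3 from -0.17 to 0.20, and that of Sparc at day 3 from -0.26 to 0.058.

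Each tested region was compared between groups with edgeR's quasi-likelihood test, and called at an adjusted p under 0.05 over all 144810 regions. At day 7, the only day-matched comparison, 21 of the 105 tested members were lower than in fibroblasts and 13 were higher, where 12% of all tested regions were called lower and 15.5% higher (27.5% in all). At day 2, 11 were lower and 14 higher (background 8.09% and 12.2%, 20.3% in all). At day 3, 14 were lower and 11 higher (8.84% and 13.2%, 22% in all). At day 14, 21 were lower and 12 higher (9.7% and 12.8%, 22.5% in all), and at day 21, 25 were lower and 14 higher (10.1% and 13.3%, 23.4% in all). Members called lower made up 10.5, 13.3, 20.0, 20.0 and 23.8% of those tested at days 2, 3, 7, 14 and 21, above the background share at each time, and those called higher 13.3, 10.5, 12.4, 11.4 and 13.3%, around it. The 5 comparisons share the 3 control libraries. Tested members had a higher median level than all tested regions, 2.40 against 1.47 CPM, with a like median width of 1516 against 1490 bases. The median log2 fold change of the members was -0.049, -0.12, -0.070, -0.23 and -0.084 at days 2, 3, 7, 14 and 21, against -0.0027, -0.0071, 0.0059, 0.068 and 0.047 over all tested regions.

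The direction of the calls was sensitive to scaling. With library totals alone the splits of lower to higher were 3 to 27, 6 to 19, 12 to 17, 11 to 23 and 10 to 22 at days 2, 3, 7, 14 and 21. Under that scaling 25.0, 23.5, 23.4, 25.0 and 28.6% of all tested regions were called, and their median moved up as well. Library totals include the single chromosome 1 region described above, whose share of the counts differed widely between libraries. With loess offsets by abundance the splits were 17 to 10 at day 2 and 21 to 9 at day 3, where 20.8 and 22.6% of all tested regions were called. Without the libraries that stand apart, of 124 tested members, they were 10 to 20, 14 to 21, 23 to 21, 25 to 14 and 29 to 17 at these 5 times, where 18.6, 21.6, 29.0, 22.7 and 25.2% of all tested regions were called. The count called lower at day 2 fell to 7 without fibroblast replicate 2 or 3 and to 6 without day 2 replicate 3, and at day 7 it fell to 13 without fibroblast replicate 2. In the same order these fits tested 128, 123, 127 and 128 members and called 10.9, 12.4, 11.6 and 15.3% of all tested regions in either direction. The share of all regions called lower in these fits is not given here, so the lower counts cannot be set against it. Without fibroblast replicate 1, those called higher fell to 9 at day 2, 7 at day 14 and 8 at day 21, and without day 3 replicate 1 those at day 3 rose to 17. Of all tested regions, 12.9, 15.2, 15.3 and 16.5% were called in either direction in these comparisons. Members tested numbered 104 without fibroblast replicate 1 and 125 without day 3 replicate 1.

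**Figure D2:**
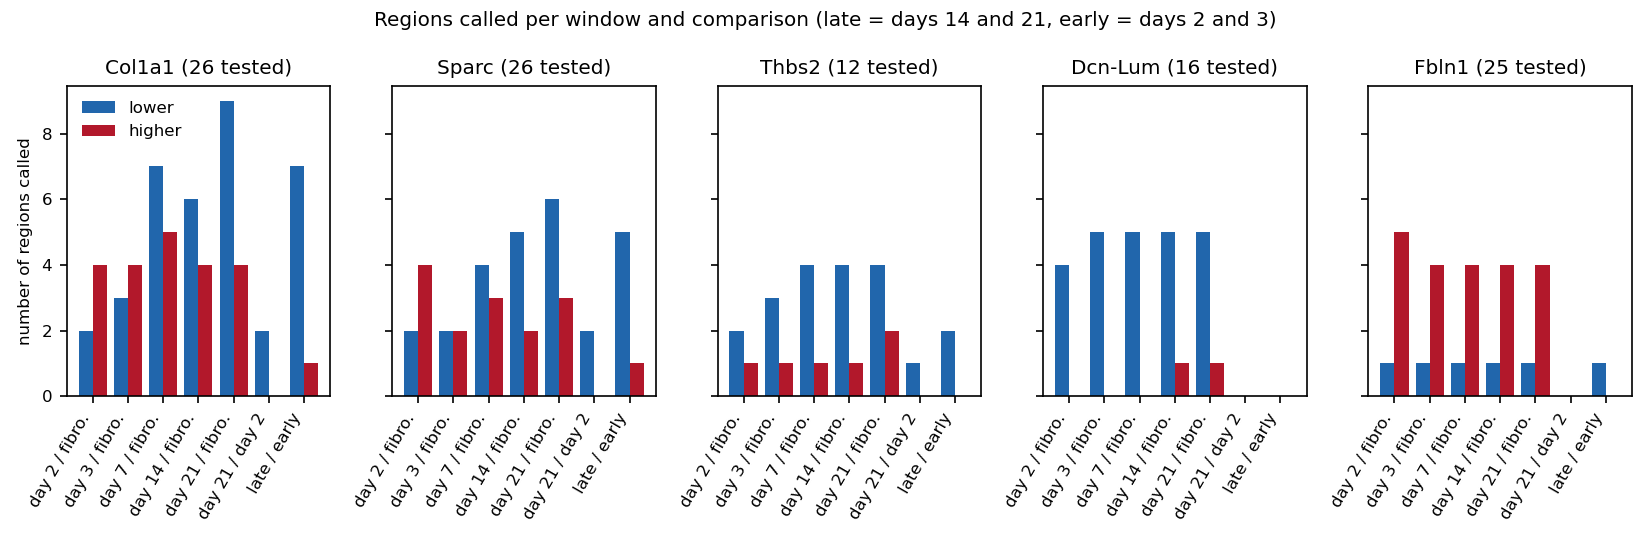
Number of tested regions called lower (blue) or higher (red) in each stretch (panels) for 7 comparisons (horizontal axis), by edgeR's quasi-likelihood test at an adjusted p under 0.05. Dcn and Lum have 4 to 5 lower calls and at most 1 higher call against fibroblasts, and Fbln1 has 1 lower call and 4 to 5 higher calls. The Fbln1 higher calls are 16 to 20% of its tested regions, against 12.2 to 15.5% of all tested regions.

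The stretches differed in the make-up of their calls. Of 26 tested Col1a1 regions, 7 were lower and 5 higher at day 7. Of 26 at Sparc, 4 were lower and 3 higher. Of 12 at Thbs2, 4 were lower and 1 higher. Of 16 at Dcn and Lum, 5 were lower and none higher. An unadjusted edgeR p under 0.05 was held by 7 of the 16, and by 55331 of all 144810 tested regions. DESeq2 also called 5 lower and 0 higher there. Of 25 at Fbln1, 1 was lower and 4 were higher. In this order of stretches the shares called lower were 26.9, 15.4, 33.3, 31.25 and 4%, against 12% of all tested regions. Those called higher were 19.2, 11.5, 8.33, 0 and 16%, against 15.5%. The difference in make-up between stretches was not tested. Without fibroblast replicate 2 the lower calls became 3 at Col1a1 and 2 at Sparc, and those at Col1a1 became 4 without fibroblast replicate 3 or without day 7 replicate 3. Without day 7 replicate 2 a second Thbs2 region was higher. Over leave-one-out fits the lower calls at Dcn and Lum ranged from 4 to 6. Scaling by library totals alone made the splits of lower to higher at day 7 3 to 6 at Col1a1, 1 to 3 at Sparc and 3 to 3 at Thbs2. With loess offsets, where 26.5% of all tested regions were called, they were 6 to 3, 7 to 3 and 5 to 2 there and 3 to 3 at Fbln1. In fits of the 2 groups alone and of regions with a mean of at least 1 CPM, the lower calls at Fbln1 became 3 of 19 and 2 of 20 tested. Those 2 fits called 45.3 and 34.5% of all tested regions in either direction, against 27.5% with the default settings. Without the libraries that stand apart, Thbs2 had 5 lower and 3 higher of 14 tested and Fbln1 had 1 lower and 7 higher of 29 at day 7, and the higher calls at Fbln1 were 8 at day 2 and 9 at day 3 against 5 and 4 with all libraries. With no filter on low counts 559 members were tested and 0.834 to 1.56% of all regions were called against fibroblasts, and at Dcn and Lum no region was called at day 7. In that fit 47 of the 92 calls of the regions named by rule below were lost, and these losses are not repeated with each region.

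**Figure D3:**
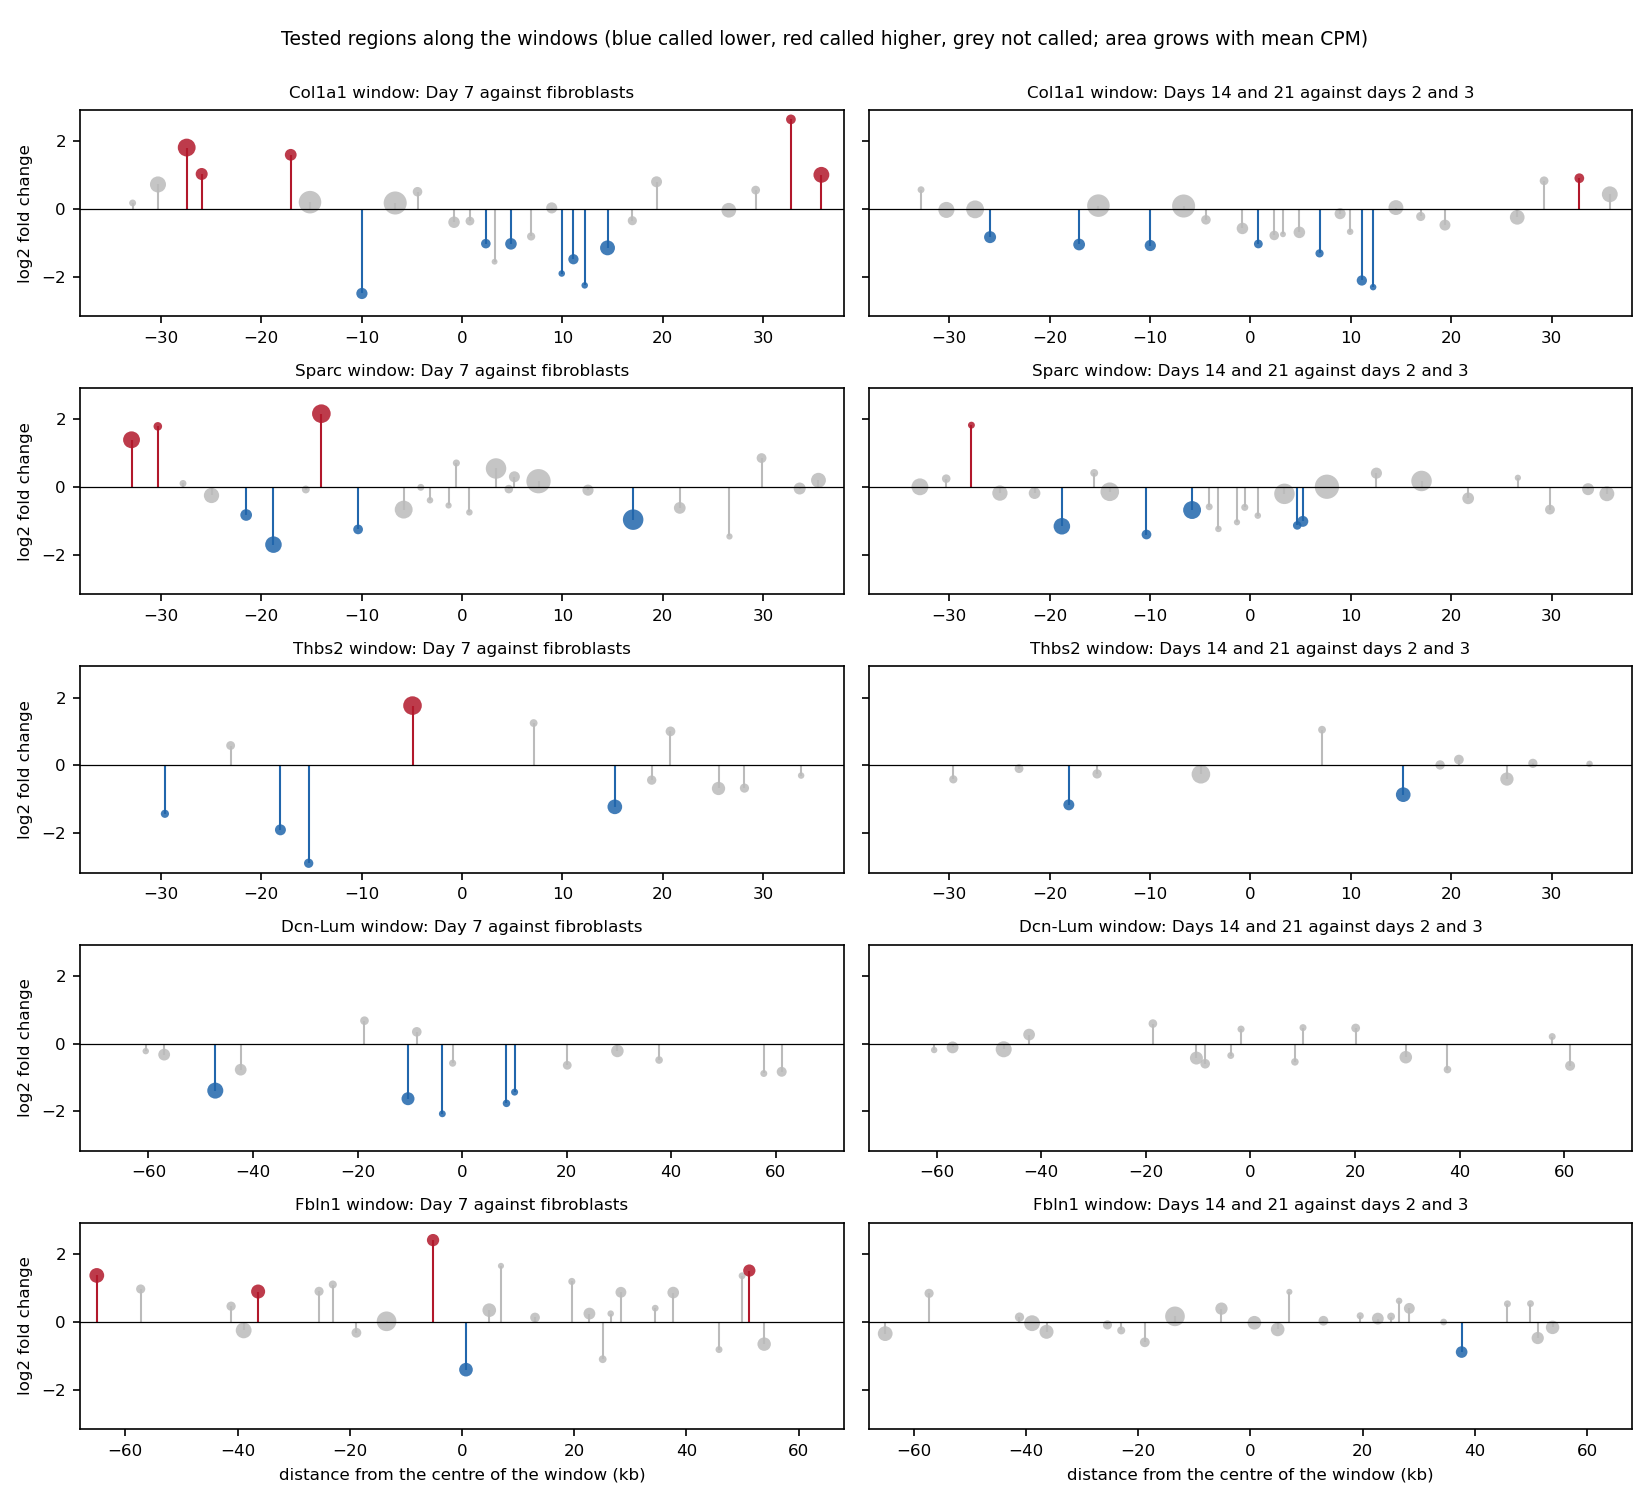
Log2 fold change of each tested region (vertical axis) by its distance from the centre of the stretch in kb, for day 7 against fibroblasts (left) and for days 14 and 21 against days 2 and 3 (right); blue points were called lower, red higher, grey neither, and the area grows with the mean CPM. The strongest signals at Col1a1 are grey, and the called regions lie around them.

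At Col1a1 the 2 most accessible regions were not called at any time, and the calls fell on weaker regions around them. The strongest region, 94797210 to 94799479 on chromosome 11, measured 24.6, 31.5 and 28.5 CPM in the controls and 28.5, 33.1 and 33.5 at day 7 (log2 fold change 0.17, SE 0.32, edgeR adjusted p = 0.727). Over the other times its group means were 25.2, 25.8, 25.6 and 29.1 CPM at days 2, 3, 14 and 21, and the groups overlapped at each. The next, 94788390 to 94791329, measured 27.4 ± 6.44 CPM (SD, n = 3) in the controls and 31.1 ± 1.27 at day 7, and was not called at any time. A p above the threshold does not show equality: the fitted differences of both regions have standard errors of 0.32 to 0.37.

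Between and beside these, single regions moved in opposite directions. The region 94794670 to 94795386 had the largest fall of the stretch at day 7. It measured 8.76, 7.40 and 16.2 CPM in the controls, 2.24, 4.85 and 3.67 at day 2, 0.264, 3.22 and 2.88 at day 3, 2.18, 1.83 and 1.39 at day 7, 1.12, 1.24 and 1.19 at day 14, and 2.23, 1.08 and 1.97 at day 21. Every GMT library lay below every control. Its log2 fold change was -1.41 at day 2 (edgeR adjusted p = 0.00178, 0.0686 without fibroblast replicate 3 and 0.0619 with library totals alone), -2.05 at day 3, -2.49 at day 7 (SE 0.36, adjusted p = 8.7e-08), -3.13 at day 14 and -2.49 at day 21. Of the settings run for day 21 against day 2, it was called lower only without the libraries that stand apart (-1.25, adjusted p = 0.0254).

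The regions nearer the ends of the stretch that passed the rule both rose. The region 94776880 to 94778277 measured 3.10, 5.32 and 6.13 CPM in the controls, 9.92, 19.6 and 15.1 at day 2, and 15.6, 15.4 and 16.7 at day 7, and GMT and control libraries did not overlap at any time. The log2 fold change there was 1.75 at day 2 (SE 0.33, edgeR adjusted p = 3.75e-05) and 1.68, 1.81, 1.49 and 1.92 at days 3, 7, 14 and 21. The largest rise was at 94837046 to 94838463, from 0.547, 0.231 and 0.360 CPM in the controls to 3.37, 1.94 and 2.88 at day 7 and 4.57, 4 and 4.22 at day 21. This region lies near the end of the stretch, and which gene it belongs to was not determined. Day 3 replicate 1, at 0.527 CPM, lay within the range of the controls. The log2 fold change was 2.64 at day 7 (SE 0.52, adjusted p = 5.81e-05) and 3.26 at day 21. At day 2 it was 2.23, and there the call was lost without day 2 replicate 2 (adjusted p = 0.108).

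At Sparc the region with the highest level was not called either, while the region with the most accessibility per base fell. The former, 55231073 to 55234160 on chromosome 11, measured 30.1, 35.9 and 35.0 CPM in the controls and 34.3, 42.9 and 36.4 at day 7 (log2 fold change 0.18, SE 0.34, edgeR adjusted p = 0.741) and was not called at any time. The region 55241304 to 55242777 had 13.4 CPM per kb over all libraries, the highest of all tested members per length. It measured 29.5, 38.9 and 42.9 CPM in the controls, 8.00, 18.8 and 19.6 at day 2, 5.54, 20.6 and 14.7 at day 3, 16, 23 and 17.9 at day 7, 20.2, 16.7 and 12.4 at day 14, and 17.2, 15.7 and 18.7 at day 21.

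Controls and GMT cells did not overlap at that region at any time (between days 2 and 21 the log2 change was 0.12, edgeR adjusted p = 0.919). Its log2 fold change was -1.22, -1.39, -0.96, -1.15 and -1.09 at days 2, 3, 7, 14 and 21 (edgeR adjusted p = 0.00416, 0.000793, 0.018, 0.00575 and 0.00767). These calls were fragile. At day 7 the adjusted p was 0.172, 0.191, 0.0935 and 0.0751 without fibroblast replicate 2, fibroblast replicate 3, day 7 replicate 1 and day 7 replicate 3, and 0.0828 with library totals alone. At day 2 the call was lost without fibroblast replicate 2 or 3 or day 2 replicate 1, at day 14 without either of these controls or day 14 replicate 2 or 3, and at day 21 without either of them or day 21 replicate 1 or 2, with an adjusted p of 0.0502 to 0.11 over these fits. The calls at days 2, 14 and 21 were lost too with library totals alone (0.11, 0.106 and 0.186).

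The region with the largest fall at Sparc at day 7 was lower still at days 14 and 21, with its lowest log2 fold change at day 14. The region 55205293 to 55207144 measured 28.9, 26.8 and 16.6 CPM in the controls, 8.32, 19.0 and 11.6 at day 2, 5.80, 14.5 and 7.69 at day 3, 8.05, 8.11 and 6.47 at day 7, 4.36, 4.95 and 4.51 at day 14, and 3.68, 7.08 and 6.19 at day 21. Only the day 2 libraries overlapped the controls. The log2 fold change was -0.86 at day 2 (edgeR adjusted p = 0.0296), -1.36 at day 3, -1.70 at day 7 (SE 0.30, adjusted p = 7.69e-06), -2.41 at day 14 and -2.12 at day 21. The day 2 call was lost without fibroblast replicate 1 or 2, without day 2 replicate 1 or 3, and without the libraries that stand apart (adjusted p = 0.0949 to 0.313). The calls at days 2 and 3 were lost with library totals alone (-0.24 and -0.90, adjusted p = 0.692 and 0.0645).

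Close to it a region moved the other way. The region 55210249 to 55211732 rose from 5.20, 7.40 and 1.80 CPM in the controls to 9.28, 19.9 and 16.5 at day 2, 24.4, 21.9 and 21.7 at day 7, and 15.2, 11.7 and 20.7 at day 21. This was a log2 fold change of 2.17 at day 7 (SE 0.34, edgeR adjusted p = 8.34e-07), and 1.63, 1.80, 1.5 and 1.66 at days 2, 3, 14 and 21, with no overlap of GMT and control libraries. The region 55227364 to 55229408, also among the 3 strongest, measured 17.2 ± 2.62 CPM in the controls and 25.0 ± 3.14 at day 7 and was not called in the fit of all libraries (log2 fold change 0.55, adjusted p = 0.149). It was called higher without the libraries that stand apart (0.68, adjusted p = 0.00387) and in a fit of the 2 groups alone (adjusted p = 0.0152). At day 3 it was called higher without the libraries that stand apart (0.57, adjusted p = 0.0417).

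Thbs2 held the tested member with the lowest log2 fold change at day 7 and, near it, a region that rose. The region 14798829 to 14800624 on chromosome 17 measured 7.39, 8.10 and 6.49 CPM in the controls. In GMT cells it measured 2.56, 0.231 and 1.43 at day 2, 0.791, 1.72 and 0.836 at day 3, 1.19, 0.799 and 0.895 at day 7, 0.859, 1.70 and 0 at day 14, and 0.557, 0.923 and 0.960 at day 21. Every GMT library was below every control, and the log2 fold change was -2.87, -2.72, -2.89, -2.98 and -3.12 at days 2, 3, 7, 14 and 21 (day 7 SE 0.43, edgeR adjusted p = 3.23e-07). This call was kept at each time in every leave-one-out fit.

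The adjacent region 14796357 to 14797470 went lower over the days. It measured 7.66, 7.40 and 7.93 CPM in the controls, 6.40, 3.31 and 3.67 at day 2, 3.69, 1.82 and 2.55 at day 3, 1.91, 1.71 and 2.49 at day 7, 1.26, 1.55 and 1.66 at day 14, and 1.45, 1.85 and 1.25 at day 21. Its log2 fold change went from -0.88 at day 2 to -1.90 at day 7 (SE 0.32, edgeR adjusted p = 3.63e-06) and -2.39 at day 21. The day 2 call (adjusted p = 0.0433) was lost with DESeq2 (0.0682), with a replicate block (0.0568), with library totals alone (0.696) and in 5 of the fits that left out a library (0.126 to 0.303).

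The largest Thbs2 signal over all libraries was the region that rose. At 14808801 to 14811333 the controls measured 6.66, 5.55 and 5.04 CPM, and GMT cells 18.6, 14.6 and 18.9 at day 2, 17.8, 19.0 and 23.5 at day 7, and 17.3, 9.23 and 18.7 at day 21. It was higher in all 15 GMT libraries than in any control, with a log2 fold change of 1.76 at day 7 (SE 0.31, edgeR adjusted p = 5.95e-06) and 1.54, 1.59, 1.23 and 1.37 at days 2, 3, 14 and 21. The region 14828111 to 14832321, 13.5, 15 and 13 CPM in the controls, measured 6.54, 5.60 and 5.57 at day 7 (log2 fold change -1.22, adjusted p = 0.000946). It was not called at day 2 (-0.73, adjusted p = 0.0767) or day 3 (-0.62, 0.118), although no library of either day reached the controls. With loess offsets it was called lower at both (adjusted p = 0.00515 and 0.00575), as it was among regions with a mean of at least 1 CPM (0.0333 and 0.0435), and also at day 2 in a fit of the 2 groups alone (0.025) and at day 3 without day 3 replicate 2 (0.0442). Its day 21 call was lost with library totals alone (0.0504). The region 14839685 to 14841400, at 3.83, 6.01 and 14.1 CPM in the controls, was not called at any time. Without fibroblast replicate 1 it was called lower at days 7 and 14 (adjusted p = 0.0198 and 0.0315), and with loess offsets at day 7 (0.0106).

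At Dcn and Lum the regions that fell included the 2 strongest. The region 96940176 to 96945408 on chromosome 10, the most accessible of the stretch, measured 17.3, 18 and 19.5 CPM in the controls, 10.2, 9.32 and 8.96 at day 2, 6.86, 7.83 and 9.69 at day 3, 7.33, 7.54 and 5.97 at day 7, 7.21, 8.50 and 9.50 at day 14, and 8.92, 4.77 and 8.49 at day 21. No GMT library reached a control. The log2 fold change was -0.94 at day 2 (edgeR adjusted p = 0.00917), -1.39 at day 7 (SE 0.27, adjusted p = 4.67e-05) and -1.27 at day 21. At day 2 the call was lost without fibroblast replicate 2 or 3 or without any 1 of the day 2 libraries (adjusted p = 0.054 to 0.121).

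A second region of this stretch, 96978645 to 96980682, measured 10.9, 10.9 and 11.2 CPM in the controls, 5.44, 5.00 and 4.28 at day 2, 3.17, 3.31 and 4.18 at day 7, and 4.35, 2.15 and 3.12 at day 21. The controls were almost identical and GMT libraries lay at 2.15 to 5.94 CPM. The change on the log2 scale was -1.16, -1.10, -1.63, -1.37 and -1.75 at days 2, 3, 7, 14 and 21 (day 7 SE 0.29, edgeR adjusted p = 7.02e-06), and the day 2 call was lost without day 2 replicate 3 (0.0533). The largest fall was at 96985664 to 96986798, from 3.01, 3.24 and 1.08 CPM to 0.660, 0.457 and 0.696 at day 7 (log2 fold change -2.07, SE 0.51, adjusted p = 0.00128). Without fibroblast replicate 1 its calls at days 2 and 3 were lost (adjusted p = 0.0549 and 0.0713). With library totals alone, 96940176 to 96945408 was called lower at day 7 only, 96978645 to 96980682 lost its calls at days 2, 3 and 14, and 96985664 to 96986798 lost those at days 2 and 3. The region 97018172 to 97021273, at 6.47 ± 3.15 CPM in the controls and 5.18 ± 0.473 at day 7, was not called, and at day 14 its adjusted p was 0.0535 (log2 fold change -0.89), and 0.0405 without day 14 replicate 2. It was also called lower at day 14 with RLE factors, loess offsets, the filter at 1 CPM and the 2 groups alone (0.0119 to 0.0458).

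The remaining calls of this stretch were weaker regions, named here after their values were seen. The region 96997714 to 96999298 measured 4.10, 3.01 and 1.80 CPM in the controls and 1.06, 1.37 and 0.398 at day 7, and fell at all 5 times (day 7 log2 fold change -1.76, edgeR adjusted p = 0.00111). The region 96999372 to 97000740 was called lower at days 3 and 7 (-1.73 and -1.43, adjusted p = 0.016 and 0.0321) and 97049466 to 97052848 at days 14 and 21 (-1.61 and -1.23, 0.00172 and 0.00869). One region was called higher, 96969999 to 96972669, at days 14 and 21 (1.56 and 1.79, 0.0244 and 0.00589). It measured 0.365, 1.39 and 0.721 CPM in the controls and 2.23, 2.77 and 2.45 at day 21. At day 2 it was not called with all libraries (1.24, adjusted p = 0.117). It was called higher there without fibroblast replicate 2 (0.0429), without day 2 replicate 2 (0.0225) and with library totals alone (0.0139).

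Many of these calls rested on single libraries. Without fibroblast replicate 1 those of 96969999 to 96972669 were lost (edgeR adjusted p = 0.357 and 0.2), as was the day 7 call of 96997714 to 96999298 (0.0782). The latter also lost its day 3 call without fibroblast replicate 1 or day 3 replicate 3 or with library totals alone (0.0791 to 0.212), and the former its day 14 call with DESeq2 (0.0608) and without day 14 replicate 1 (0.107). The region 96999372 to 97000740 lost its day 3 call without fibroblast replicate 2 or 3 or day 3 replicate 3 and with library totals alone (0.0629 to 0.173). Its day 7 call was lost without any 1 fibroblast library, without day 7 replicate 1 or 2, with loess offsets and with library totals alone (0.077 to 0.152). The calls of 97049466 to 97052848 were lost with library totals alone (0.0837 and 0.257), at day 14 without day 14 replicate 1 (0.0753) and at day 21 without fibroblast replicate 2 or day 21 replicate 2 (0.112 and 0.115).

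At Fbln1 most called regions rose, and the strongest were not called. The share called higher was near that of all tested regions at day 7. It was 20, 16, 16, 16 and 16% at days 2, 3, 7, 14 and 21, against 12.2, 13.2, 15.5, 12.8 and 13.3% of all tested regions. The 2 strongest, 85059862 to 85063239 and 85034806 to 85037359 on chromosome 15, measured 20.9 ± 5.45 and 13.3 ± 2.82 CPM in the controls and 20.8 ± 2.33 and 10.9 ± 0.282 at day 7, and neither was called at any time in the fit of all libraries. With loess offsets the second was called lower at all 5 times (adjusted p = 0.00593 to 0.0432) and the first at days 2 and 21 (0.0451 and 0.0493). The second was also called lower at days 14 and 21 in fits of the 2 groups alone (0.0212 and 0.00415).

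The one region called lower than in fibroblasts was 85074776 to 85076627, at 12.5, 12.5 and 17.3 CPM in the controls. It measured 4.16, 5.39 and 4.07 at day 2, 2.37, 5.15 and 4.85 at day 3, 5.61, 4.23 and 5.67 at day 7, 3.31, 4.17 and 6.89 at day 14, and 4.90, 4.46 and 3.98 at day 21. No GMT library reached a control, with a log2 fold change of -1.56, -1.65, -1.41, -1.62 and -1.65 (day 7 SE 0.28, edgeR adjusted p = 6.68e-05), and each call was kept in every leave-one-out fit.

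Close to it, 85068993 to 85070675 rose from 1.55, 0.694 and 1.80 CPM in the controls to 1.92, 4.39 and 4.28 at day 2, 6.80, 7.19 and 7.96 at day 7, and 7.13, 4.92 and 5.28 at day 21. Its log2 fold change was 1.47 at day 2 (edgeR adjusted p = 0.00429, and 0.0517 without day 2 replicate 2), 2.41 at day 7 (SE 0.36, adjusted p = 2.45e-07) and 2.07 at day 21. At the border of the stretch, 85008058 to 85011758 rose from 4.65, 4.16 and 1.80 CPM to 9.97, 11.2 and 8.75 at day 7 (log2 fold change 1.37, adjusted p = 0.000411). It was not called at day 14 (0.82, adjusted p = 0.0549), and without fibroblast replicate 3 its calls at days 2 and 21 were lost (0.0578 and 0.0774), as they were with loess offsets (0.0792 and 0.143). At day 14 it was called higher with a replicate block (0.84, adjusted p = 0.0471), without the libraries that stand apart (0.00765), without day 14 replicate 3 (0.0261) and with library totals alone (0.00704). The other regions higher at day 7, named after their values were seen, were 85125516 to 85126881, from 2.19, 1.62 and 1.44 CPM to 4.75, 4.45 and 6.96 (1.51, adjusted p = 0.000529), and 85037770 to 85039546, from 4.56, 6.71 and 5.40 to 13, 9.36 and 7.76 (0.89, 0.0189). The former was called at all 5 times and the latter at day 7 only. The day 7 call of the latter was lost without fibroblast replicate 1 or day 7 replicate 1, with DESeq2 and with loess offsets (0.0521 to 0.277), and it was called at day 3 without the libraries that stand apart (0.0156), without day 3 replicate 1 (0.0447) and with library totals alone (0.0469). The day 21 call of the former (0.0325) was lost without any 1 fibroblast library, without day 21 replicate 2, with DESeq2 and with loess offsets (0.0617 to 0.163).

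A comparison within GMT cells asked whether accessibility went on changing after day 3. The mean of days 14 and 21 was set against that of days 2 and 3, with 6 libraries on each side. No control enters this contrast, but the filter, scaling and spread came from the fit of all 18 libraries, controls included. In a fit of the 4 GMT groups alone, 14 of 85 tested members were lower and 3 higher, where 7.75% of all regions tested there were called. Of the 105 tested members 15 were lower and 2 higher late, where 3.66% and 2.5% of all tested regions were called in these directions (6.17% in all), and the median log2 change was -0.18 for the members and 0.032 for all tested regions. Of the lower calls 7 lay at Col1a1, 5 at Sparc, 2 at Thbs2 and 1 at Fbln1. No Dcn and Lum region was called by edgeR or DESeq2. An unadjusted edgeR p under 0.05 was held by 4 of the 16, and by 28752 of all 144810 tested regions. Without any 1 of day 2 replicate 3, day 3 replicate 1, day 3 replicate 3, day 14 replicate 1, day 14 replicate 2 and day 21 replicate 1, the higher calls became 1. The number of calls was 11 without day 3 replicate 3 and 10 with library totals alone, where 4.49 and 2.80% of all tested regions were called. The lower calls at Col1a1 became 4 without day 2 replicate 2, day 3 replicate 3 or day 14 replicate 1, those at Sparc became 3 without day 3 replicate 2 or day 21 replicate 1, and those at Thbs2 became 1 without day 2 replicate 3. Between the extremes, day 21 against day 2, 5 of 105 were lower and none was higher, 2 at Col1a1, 2 at Sparc and 1 at Thbs2, against 0.871% and 0.572% of all tested regions (1.44% in all). In that comparison 21 members had an unadjusted edgeR p under 0.05, as did 19053 of all 144810 tested regions. DESeq2 called 6 members lower and 0 higher there, with 1.27% of all tested regions called. The edgeR count was 1, 3 and 3 without day 21 replicate 1, day 21 replicate 3 and day 2 replicate 3, where 0.296, 0.511 and 0.281% of all tested regions were called.

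The smallest adjusted p between late and early cells was at Col1a1. The region 94815333 to 94816854 measured 4.47, 4.40 and 7.21 CPM in the controls, 5.76, 6.39 and 1.43 at day 2, 1.58, 3.54 and 3.43 at day 3, 2.38, 0.799 and 2.09 at day 7, 0.727, 0.927 and 1.66 at day 14, and 1.45, 0.462 and 0.528 at day 21. Days 2 and 3 averaged 3.69 CPM and days 14 and 21 averaged 0.959, and the ranges overlapped, since day 2 replicate 3 (1.43) and day 3 replicate 1 (1.58) lay within the late range. The log2 change from early to late was -2.11 (SE 0.32, edgeR adjusted p = 1.3e-05). From day 2 to day 21 it was -2.58 (adjusted p = 0.000468). Against fibroblasts it was -0.13 at day 2 (adjusted p = 0.864), -0.73 at day 3 (0.181), -1.48 at day 7 (0.00364) and -2.70 at day 21 (5.85e-06).

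Sparc and Thbs2 each held a region that was called lower at day 2 and was lower late than early. Both day 2 calls were lost under several settings, as given above. The early and late libraries overlapped at each region given next. At Sparc, 55205293 to 55207144 averaged 11.2 CPM early and 5.13 late (log2 change -1.15, SE 0.22, edgeR adjusted p = 0.000385). From day 2 to day 21 the change there was -1.26 (adjusted p = 0.0177), a call lost without day 2 replicate 2 or 3 or day 21 replicate 1 or 3 (0.0698 to 0.301) or with library totals alone (0.114). At Thbs2, 14796357 to 14797470 averaged 3.57 early and 1.5 late (-1.16, SE 0.26, adjusted p = 0.00234) and was lower at day 21 than at day 2 (-1.51, adjusted p = 0.0135), a call lost without day 2 replicate 1 or 3 or day 21 replicate 1 or 3 (0.0586 to 0.134) or with library totals alone (0.0986). The Thbs2 region 14828111 to 14832321 averaged 8.31 and 4.61 (-0.86, SE 0.22, adjusted p = 0.00729). The last call was lost without day 2 replicate 3 (0.0521) and with library totals alone (0.0595), and of the settings run for day 21 against day 2 this region was called lower only without the libraries that stand apart (-0.91, adjusted p = 0.0404).

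One Fbln1 region was higher early and lower again late. The region 85111907 to 85113368 measured 1.64, 1.62 and 3.24 CPM in the controls, 7.36, 7.01 and 5.70 at day 2, 5.27, 3.65 and 6.06 at day 3, 4.29, 2.28 and 3.98 at day 7, 3.24, 2.94 and 2.14 at day 14, and 2.45, 4.46 and 3.41 at day 21. The early libraries all lay above the controls and the later groups overlapped them. The libraries of days 2 and 3 overlapped those of days 14 and 21. Against fibroblasts the log2 fold change was 1.76 at day 2 (edgeR adjusted p = 0.000198), 1.36 at day 3 (0.00357, and 0.0837 without fibroblast replicate 1 or 0.0584 without day 3 replicate 3), 0.86 at day 7 (0.072) and 0.79 at day 21 (0.121). It fell by 0.89 on the log2 scale from early to late (SE 0.22, adjusted p = 0.0073, and 0.0556 or 0.052 without day 3 replicate 3 or day 21 replicate 1, and 0.0511 with library totals alone). At day 7 it was called higher without the libraries that stand apart (0.99, adjusted p = 0.0231), without fibroblast replicate 3 (0.0221) and without day 7 replicate 2 (0.0327), and at day 21 without fibroblast replicate 3 (0.0476) and with library totals alone (0.0204).

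**Figure D4:**
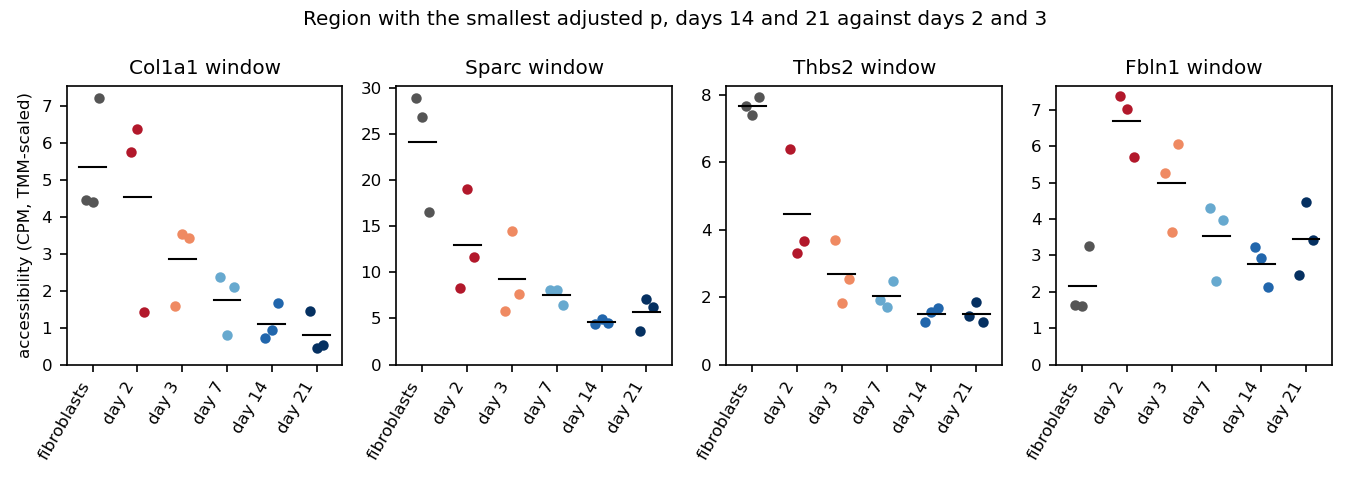
Accessibility in TMM-scaled CPM (vertical axis, from 0) of the region with the smallest adjusted p between days 14 and 21 and days 2 and 3, for the stretches with a call; points are libraries and bars are group means. The Col1a1, Sparc and Thbs2 regions go down from day 2 to day 21, and the Fbln1 region is highest at day 2 and later overlaps the controls.

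Other late calls at Col1a1 and Sparc fall outside the rule for named regions and are given because they were singled out after their values were seen. At Col1a1, 94787632 to 94788247 averaged 1.55 CPM in the controls, 6.01 early and 2.74 late (log2 change -1.05, edgeR adjusted p = 0.00261), and 94778608 to 94779532 averaged 3.12, 5.53 and 2.93 (-0.83, 0.0126). Both were called higher than in fibroblasts at days 2, 3 and 7 and not at days 14 and 21. The late call of 94778608 to 94779532 was lost without day 14 replicate 3 or day 21 replicate 2 and with library totals alone (0.0598 to 0.0748), and without fibroblast replicate 1 its calls at days 2, 3 and 7 were lost (0.362, 0.409 and 0.27), as they were with loess offsets (0.133, 0.168 and 0.111). Those at days 2 and 3 were also lost with DESeq2 and without replicate 2 or 3 of the same day (0.0638 to 0.102), and that at day 7 without day 7 replicate 1 (0.0683). At Sparc, 55229960 to 55230470 went from 2.45 CPM in the controls to 4.86 early and 2.3 late (-1.01, adjusted p = 0.00248). Of these and the regions above, 94787632 to 94788247 was also lower at day 21 than at day 2 (-1.30, 0.0295), as was 55214378 to 55214918 at Sparc (-1.83, 0.00246). The former of these calls was lost without day 2 replicate 1 or 3, day 21 replicate 1 or 2, without the libraries that stand apart and with library totals alone (0.0612 to 0.263), and the latter without day 21 replicate 1 (0.0571). The regions that rose late were 94837046 to 94838463 at Col1a1, from 1.79 to 3.70 CPM (0.91, adjusted p = 0.0221), and 55196902 to 55197522 at Sparc, from 0.374 to 1.34 CPM (1.83, 0.0019). Of these, the call of 94837046 to 94838463 was lost in 6 of the fits that left out a GMT library (0.055 to 0.116) and with library totals alone (0.0847). The late fall of 94794670 to 94795386 (-1.08, 0.0116) was lost without day 2 replicate 2, day 3 replicate 3 or day 14 replicate 1 (0.0811, 0.0603 and 0.0535).

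Profiles over the 18 libraries were compared with those of 7090 windows of 100000 bases elsewhere in the genome, as a description in which all points share library and depth. Unlike the levels above, these profiles were summed over tested regions alone. The Dcn and Lum profile was most like those of 160800001 to 160900000 and 45400001 to 45500000 on chromosome 1 (Pearson r of the log2 of summed CPM 0.951 and 0.944). Those windows averaged 57.5 and 119 CPM in the controls and 31.4 and 39.4 in GMT cells, and over the 15 GMT libraries alone r was 0.722 and 0.624. For Sparc the closest was 87300001 to 87400000 on chromosome 12 (0.965, and 0.961 over GMT libraries), for Col1a1 126900001 to 127000000 on chromosome 10 (0.935 and 0.935), for Thbs2 73200001 to 73300000 on chromosome 14 (0.890 and 0.859) and for Fbln1 135700001 to 135800000 on chromosome 1 (0.879 and 0.908). The likeness of the Dcn and Lum profile was thus weaker without the controls, and that of the Sparc, Col1a1 and Fbln1 profiles was nearly the same.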

How the data were processed

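Accessibility was measured by ATAC-seq in 18 libraries, 3 each of fibroblasts and of inhibitor-treated GMT cells at each of days 2, 3, 7, 14 and 21. The authors deposited whole-number counts per region of mm9. The submitters' processing notes name Bowtie2, Picard, MACS2 and edgeR, with no settings. Of 2 sequencing cores in the labels neither is tied to a library, so no within-core value could be had. From the counts, TMM factors, the default expression filter (minimum count 10, minimum total 15) and robust quasi-likelihood fits over all 18 libraries were computed with edgeR 4.0.16 in R 4.3.3, with 12 residual degrees of freedom, and p-values were adjusted by Benjamini-Hochberg over 144810 regions. The common biological coefficient of variation was 23.8%. The script that fits the model was tested on simulated data. Alternatives were DESeq2 1.42.0, RLE factors, library totals, loess offsets (limma 3.58.1), other filters, a replicate block, the compared groups alone and leaving out libraries.

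Regions named in each stretch were the 3 with the highest mean CPM, the called region with the lowest and that with the highest log2 fold change at day 7, and the one with the smallest adjusted p between late and early cells where called. The members, lists and rules were chosen with earlier results of these data known. Same-numbered libraries did not deviate together, so the numbers were not treated as pairs. The labels call replicates biological, and p-values measure the spread between these samples only. Intervals for window sums were not computed, and the number of libraries limits their precision.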

Additional observations from a re-analysis of the deposited data

How the results depend on the processing

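Calls of the 105 tested members numbered 25, 25, 34, 33 and 39 against fibroblasts at days 2, 3, 7, 14 and 21, 5 for day 21 against day 2 and 17 for late against early cells. With no filter on low counts, where 559 members were tested and 0.834 to 1.56% of all regions were called against fibroblasts, they were 10, 12, 16, 14, 15, 1 and 2, with 0.00381 and 0.0354% of all regions called in the last 2 comparisons. At an adjusted p under 0.01 they were 25 at day 21, 2 for day 21 against day 2 and 10 late against early, with 14.8, 0.450 and 2.49% of all tested regions called. With library totals alone the last 2 comparisons gave 2 and 10, with 0.347 and 2.80% of all tested regions called. Day 21 against day 2 gave 9 of 124 once day 2 replicate 1, day 3 replicate 1 and day 14 replicate 3 were left out, with 2.25% of all tested regions called. Leaving out 1 library gave 17 to 26 at day 2, 20 to 31 at day 3, 28 to 33 at day 7, 26 to 38 at day 14, 28 to 34 at day 21, 1 to 4 for day 21 against day 2 and 11 to 19 late against early. In the same order 10.9 to 15.1, 12.0 to 18.8, 15.3 to 23.4, 12.5 to 16.0, 12.9 to 16.5, 0.281 to 0.836 and 2.54 to 5.23% of all tested regions were called in those fits, which tested 102 to 130 members. Of the 182 log2 fold changes of the 26 regions named by rule, 58 changed sign under at least 1 setting, 0 of them among the 92 called, and no changed value was called under the setting that changed it. Of the 92 calls, 23 were lost when scaled by library totals only and 47 without the filter.

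The replicate block gave 24, 25, 34, 34, 39, 5 and 18 calls in the same order, with 19.7, 21.2, 26.8, 22.1, 22.6, 1.48 and 5.96% of all tested regions called. Correlations of deviations between the 45 same-numbered pairs ran from -0.157 to 0.321 with a median of 0.00475, and 8 of 18 libraries were closest to their own number. Loess offsets were not run for summed levels, nor the stricter threshold for single regions. Libraries of few counts limit what small regions can show.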
